A study of Mus musculus with 2 samples.

Results

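Heat-shock-high cells were 742 innate lymphoid cells (ILCs) of mouse skin that carried at least 10 UMIs of the stress-induced chaperone genes Hspa1a and Hspa1b together. UMIs are molecular tags, and each counts as 1 captured RNA molecule however often its copies were read. The 742 were picked from the cells whose names end in suffix 2, called set 2 here, with at most 10% mitochondrial UMIs and fewer than 3 UMIs of the cycling genes Mki67, Top2a and Birc5 together. They made up 22.3% of the 3331 cells of set 2 within those limits (95% interval of counting error 20.9 to 23.7%), 19.7% of all 3775 cells of set 2, and were drawn from 5246 cells in all. They were set against 2168 heat-shock-low cells of set 2, which met the same limits and held at most 1 UMI of the pair, while 421 cells with 2 to 9 UMIs lay in between.

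The skin came from C57/BL6 mice of postnatal day 1 in 1 library and of postnatal day 14 in the other. Collagenase was used to digest the skin, and cells positive for CD45 and Thy1.2 and negative for lineage markers were sorted and captured with a 5' droplet kit, per the labels' protocols. No treatment or genetic change is named in the labels, and neither the number nor the sex of the mice is given. Suffixes 1 and 2 match neither day's label, so no cell was assigned to a day, and both groups of cells are given only as cells of set 2.

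The heat-shock response is a program by which cells raise molecular chaperones when proteins misfold. Heat-shock factor 1 binds promoter elements built of inverted GAA units and raises HSP70, HSP90, HSP110, small heat-shock proteins and their co-chaperones, which hold, refold or hand on unfolded proteins. Group 2 ILCs, the main ILCs of skin, are tissue-resident lymphocytes that depend on Gata3 and Rora and release Il5, Il13 and Areg, while AP-1 factors such as Fos and Jun are made within minutes of many stimuli.

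Because the UMIs of Hspa1a and Hspa1b chose the cells, every value below from the same contrast is a description of these cells. Cells of 1 library are not replicates, so nothing was tested, and intervals are 95% intervals of counting error only. The groups were close in depth, with medians of 4647.5 UMIs and 1563 genes per cell in heat-shock-high cells and 4854 UMIs and 1521 genes in heat-shock-low cells. Mitochondrial genes took a median of 2.85% of the UMIs in heat-shock-high cells and 2.60% in heat-shock-low cells, and ribosomal protein genes 29.4% and 29.5% in the same order. In all, 3638235 UMIs were summed over heat-shock-high cells and 10734012 over heat-shock-low cells, and levels are UMIs per 1000000 (CPM). Cells with Xist UMIs and none of the 4 Y-linked genes counted made up 39.4% of heat-shock-high and 40.6% of heat-shock-low cells, and cells with only Y-linked UMIs 33.4% and 34.0%. Of 4 barcodes that occurred in both sets, 2 belonged to heat-shock-high cells, and without such cells the counts of 2-fold genes given below were 52 higher and 140 lower, a setting chosen after seeing the data.

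Hspa1a and Hspa1b, a pair of neighbouring genes that encode the stress-inducible HSP70 proteins, lay on the minus strand of chromosome 17 at chr17:34969190-34972156 and chr17:34956436-34959238 in the mm10 annotation. Per heat-shock-high cell the pair had 10 UMIs at the lowest, a median of 30 and 252 at the highest, with the middle of the cells between 17 and 54. Hspa1a had a median of 13 UMIs and Hspa1b of 17. The pair took a median of 0.699% of all UMIs of a heat-shock-high cell. Of the heat-shock-low cells, 1879 held 0 UMIs of the pair and 289 held 1. Heat-shock-high cells held 93.2% of the pair's UMIs over the 3331 cells within the limits.

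The number of UMIs had no gap at the limit of 10. There were 56 heat-shock-high cells with 10 or 11 UMIs just inside it, and 71 cells with 8 or 9 just outside. Among the heat-shock-high cells, 370 had 10 to 29 UMIs, 372 had 30 or more, and 48 of these had 100 or more. UMIs of both genes were found in 660 of the 742 cells, of Hspa1a alone in 19 and of Hspa1b alone in 63. Hspa1a made up a median of 41.7% of a cell's UMIs of the pair (quartiles 27.9 and 54.4%). The coding sequences of the pair are 1923 and 1926 bases long. Compared from the first base without alignment, they match at 98.1% of the positions of the longer one. The split of reads between the genes is therefore uncertain, and their sum is used. In summed UMIs, Hspa1a stood at 3753 CPM in heat-shock-high cells and 10.99 CPM in heat-shock-low cells, and Hspa1b at 4814 and 15.9 CPM, values fixed by the choice of cells.

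**Figure D1:**
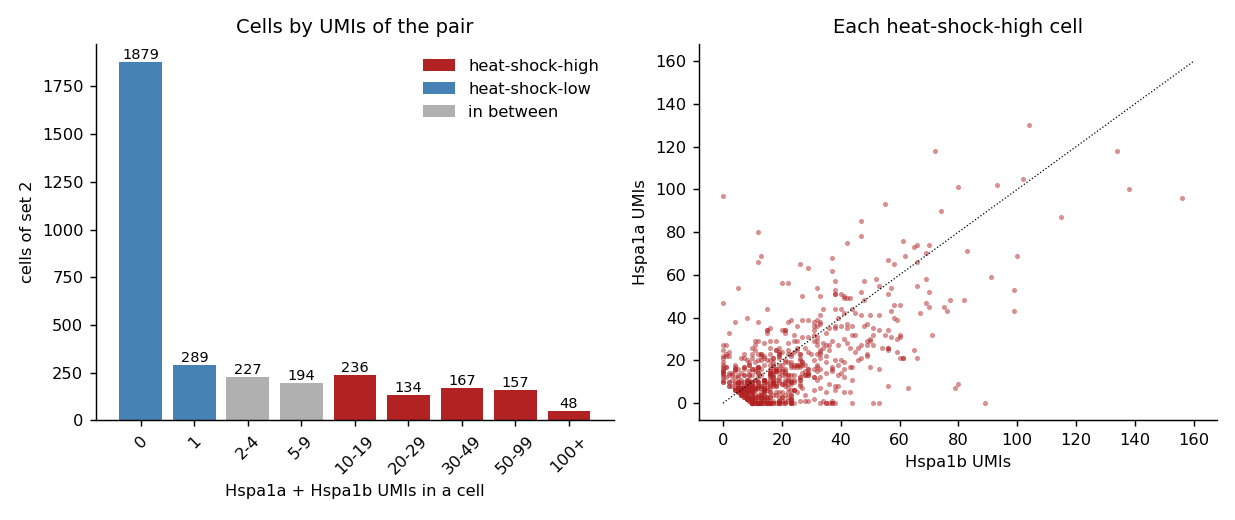
Left, cells of set 2 within the limits (vertical axis, number of cells) by their UMIs of Hspa1a and Hspa1b together, with heat-shock-high cells in red, heat-shock-low cells in blue and cells in between in grey. Right, Hspa1a UMIs against Hspa1b UMIs of each heat-shock-high cell, with a dotted line at equal numbers; 660 of 742 cells lay off both axes, and the bars show no gap at 10 UMIs.

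The promoters of the pair are shown for their matches to inverted GAA units, although binding of heat-shock factor 1 was not measured here. They are from RefSeq on GRCm38.p6, run from 250 bases before the start site to 50 after it, and lie on the minus strand at chr17:34972107-34972406 for Hspa1a and chr17:34959189-34959488 for Hspa1b. Capitals mark each match, on either strand, to 2 inverted units (GAANNTTC or TTCNNGAA) and to 3 units (GAANNTTCNNGAA or TTCNNGAANNTTC), where a match of 3 units holds overlapping matches of 2.
Hspa1a: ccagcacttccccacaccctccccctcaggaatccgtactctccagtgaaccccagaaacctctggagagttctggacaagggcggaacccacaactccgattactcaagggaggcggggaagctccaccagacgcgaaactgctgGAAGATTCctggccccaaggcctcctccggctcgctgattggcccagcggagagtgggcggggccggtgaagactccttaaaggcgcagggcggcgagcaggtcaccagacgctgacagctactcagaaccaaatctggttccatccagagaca
Hspa1b: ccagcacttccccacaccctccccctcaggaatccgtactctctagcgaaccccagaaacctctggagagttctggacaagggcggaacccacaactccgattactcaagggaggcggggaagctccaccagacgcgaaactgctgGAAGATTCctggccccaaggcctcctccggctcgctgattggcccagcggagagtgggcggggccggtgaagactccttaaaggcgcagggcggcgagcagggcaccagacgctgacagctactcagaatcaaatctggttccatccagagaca
These 300-base windows differed at 4 positions and each held 1 match of 2 units and 0 matches of 3 units, at the same place. Over all 27025 genes with a promoter in the table, 16.97% held 2 units and 0.662% held 3 units.

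Beside the pair, a set of cytosolic and mitochondrial chaperones was higher in heat-shock-high cells. Of 51 chaperone and co-chaperone genes measured, that is with at least 100 UMIs over both groups, 10 were at least 2-fold higher and 0 were 2-fold lower on the scale of CPM + 10, with a median log2 ratio of 0.16. Over all 7386 genes measured without the pair, 53 were at least 2-fold higher (0.718%) and 140 were 2-fold lower (1.90%), with a median of 0.06. Summed over the chaperone lists without the pair, the level was 18577 CPM in heat-shock-high cells and 9546 CPM in heat-shock-low cells, a ratio of 1.95 (1.93 to 1.97). Scaling by TMM, a trimmed mean of gene ratios, moved the median of all genes by -0.13, from 0.06 to -0.08. It gave 28 higher and 226 lower genes. The chaperone sum was left at a ratio of 1.71, with 7 of the 51 still 2-fold higher and a median of -0.01.

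Hspb1, a small heat-shock protein that holds unfolded proteins, stood at 175 CPM in heat-shock-high cells and 10.1 CPM in heat-shock-low cells, a ratio of 17.4 (14.2 to 21.6). It was also uneven, with UMIs in 129 of the 742 heat-shock-high cells and 54 of the 2168 heat-shock-low cells. Hsp90aa1, the stress-inducible form of cytosolic HSP90, had 3083 CPM in heat-shock-high cells and 635 CPM in heat-shock-low cells (ratio 4.85, 4.71 to 5.001). The constitutive form Hsp90ab1 had 3441 and 1625 CPM in the same order (2.12, 2.07 to 2.17). Both HSP90 forms were therefore higher, the inducible one by the larger ratio. Under TMM Hsp90ab1 fell short of 2-fold, at log2 0.89.

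HSP70 works in a cycle with J-domain proteins, which load it and start its ATPase, and with HSP110, which exchanges its nucleotide. Hsph1, the inducible HSP110, was at 323 CPM in heat-shock-high cells and 63.2 CPM in heat-shock-low cells (5.11, 4.64 to 5.62). Dnajb1, the J-domain partner best known from heat shock, was at 319 and 67.0 CPM (4.76, 4.33 to 5.23), Dnaja1 at 2189.8 and 778 CPM (2.81) and Dnajb4 at 70.6 and 28.97 CPM (2.44). Hspa8, the constitutive HSP70, was at 3555 CPM in heat-shock-high cells and 1629 CPM in heat-shock-low cells (2.18, 2.13 to 2.23). Ratios of these partners in the HSP70 cycle thus ran from 2.18 for Hspa8 to 5.11 for Hsph1. Under TMM Hspa8 and Dnajb4 fell short of 2-fold, at log2 0.94 and 0.90.

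In mitochondria, the chaperonin HSP60 and its lid HSP10 are encoded by Hspd1 and Hspe1, which lie head to head on chromosome 1. Hspd1 had 435 CPM in heat-shock-high cells and 146 CPM in heat-shock-low cells (2.97, 2.77 to 3.19), and Hspe1 had 902 and 303 CPM (2.98, 2.84 to 3.13). The mitochondrial HSP70 gene Hspa9, in contrast, had 54.1 CPM in heat-shock-high cells and 82.2 CPM in heat-shock-low cells (0.659, 0.562 to 0.770). So the chaperonin pair and the HSP70 of the same organelle stood on opposite sides of 1.

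The remaining chaperones were not 2-fold apart. The 7 measured subunits of the cytosolic chaperonin CCT had log2 ratios between -0.11 (Cct4) and 0.16 (Cct8, -0.01 under TMM). Hsp90b1, the HSP90 of the endoplasmic reticulum, was at 526 CPM in heat-shock-high cells and 775 CPM in heat-shock-low cells (0.679, 0.646 to 0.714), and Hspa4, a constitutive HSP110, at 92.6 and 124 CPM (0.745). Of 19 measured genes of the unfolded protein response of the endoplasmic reticulum, 1 was 2-fold higher (Ppp1r15a, which ends a stress block on translation, at 379.6 and 164 CPM, though not under TMM, with log2 0.99) and 0 were lower, with sums of 4727 CPM in heat-shock-high cells and 4773 CPM in heat-shock-low cells. Of 25 proteasome subunits, 0 were 2-fold apart (median 0.04, or -0.12 under TMM). The HSP90 co-chaperones Ahsa2, Fkbp5 and Cacybp had plain ratios of 2.23, 2.17 and 2.03, which on the scale of CPM + 10 fell short of 2-fold.

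**Figure D2:**
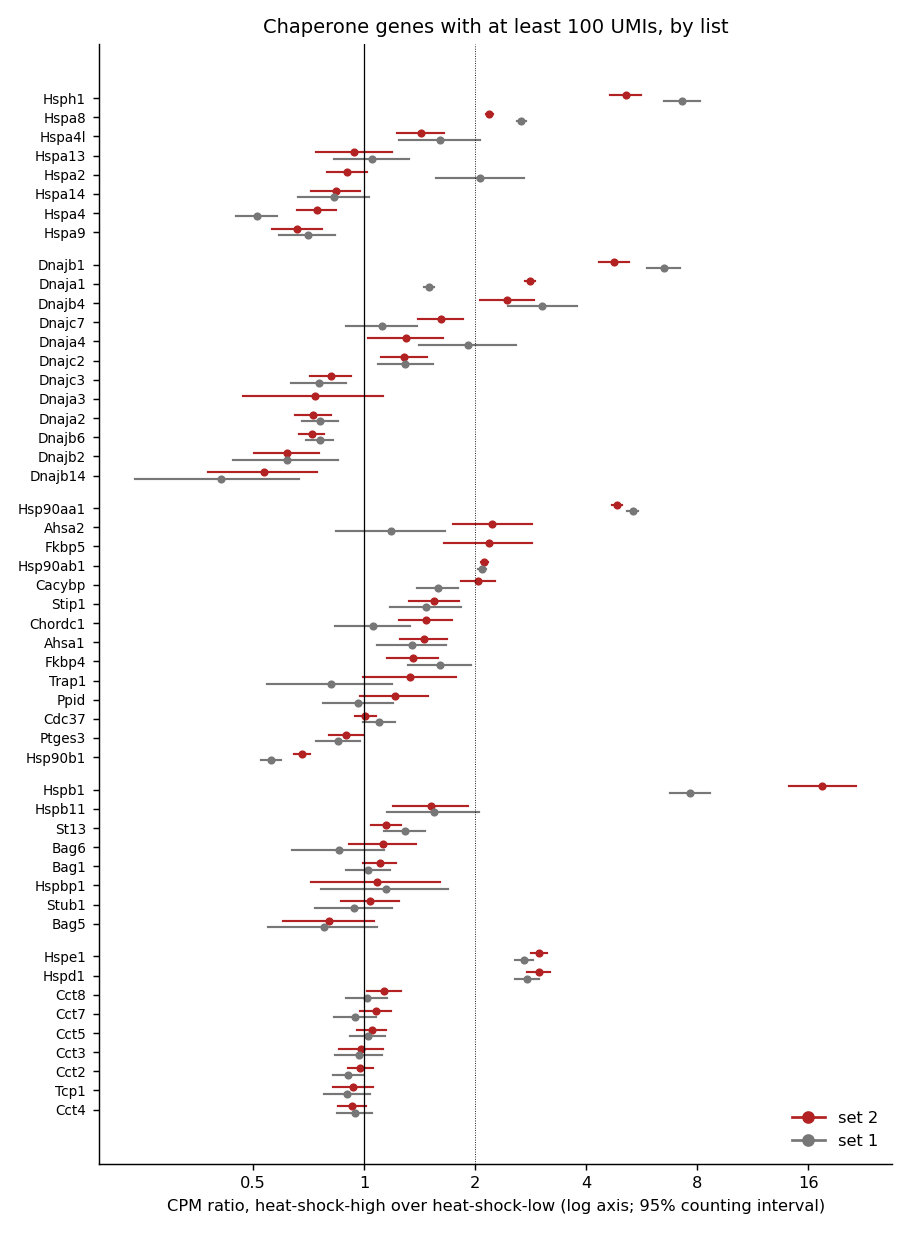
Ratio of CPM in heat-shock-high over heat-shock-low cells (horizontal, log axis) for each measured chaperone gene, in blocks from the top for HSP70 and HSP110, J-domain proteins, HSP90 and co-chaperones, small heat-shock proteins and exchange factors, and chaperonins; points are ratios, bars 95% counting intervals, red set 2 and grey set 1. In set 2, 1 or more genes of each block lie right of the dotted line at 2, led by Hspb1 at 17.4, while most of each block lies left of it.

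Promoters of 3 of these genes are printed because, with Hspd1, they held the most matches among the higher chaperones. Capitals are as above; Hsph1 is the minus strand of chr5:149636287-149636586, Hspb1 the plus strand of chr5:135887669-135887968, and Hspe1 the plus strand of chr1:55087898-55088197, all RefSeq GRCm38.p6.
Hsph1: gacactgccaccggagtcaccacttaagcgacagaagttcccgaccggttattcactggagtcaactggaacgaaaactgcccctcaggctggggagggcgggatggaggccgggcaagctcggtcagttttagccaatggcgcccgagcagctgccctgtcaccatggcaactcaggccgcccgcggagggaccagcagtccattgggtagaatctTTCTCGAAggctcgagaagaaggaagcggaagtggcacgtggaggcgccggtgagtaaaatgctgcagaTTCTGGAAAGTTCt
Hspb1: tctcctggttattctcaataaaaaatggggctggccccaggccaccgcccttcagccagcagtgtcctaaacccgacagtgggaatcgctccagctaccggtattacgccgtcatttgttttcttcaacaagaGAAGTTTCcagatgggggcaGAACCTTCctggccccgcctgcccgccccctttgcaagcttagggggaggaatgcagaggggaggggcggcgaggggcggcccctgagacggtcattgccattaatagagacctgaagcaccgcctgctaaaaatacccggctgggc
Hspe1: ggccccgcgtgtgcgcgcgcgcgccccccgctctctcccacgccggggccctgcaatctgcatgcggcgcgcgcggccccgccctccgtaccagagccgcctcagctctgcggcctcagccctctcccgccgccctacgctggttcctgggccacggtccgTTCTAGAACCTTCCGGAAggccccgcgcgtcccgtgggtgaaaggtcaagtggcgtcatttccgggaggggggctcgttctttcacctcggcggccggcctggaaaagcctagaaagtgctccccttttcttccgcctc
The Hspe1 window held 4 alternating units in a row, read as 2 overlapping matches of 3 units, and a promoter of Hspd1 covers the same bases from the other strand. Hsph1 held 1 match of 3 units just after its start site and 1 of 2 units before it, and Hspb1 held 2 separate matches of 2 units before it.

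Of the 10 higher chaperone genes, 7 had a promoter in the table. In all such shares a gene holds a match if any of its promoters does, so genes with more promoters have more chances. Of these 7 genes, 6 held 2 units (85.7%) and 3 held 3 units. The other was Dnajb1, with 0 matches in either of its promoters. Dnaja1, Dnajb4 and Hspd1 also had promoters with 0 matches. Of 35 measured chaperone genes that were not 2-fold higher, 8 held 2 units (22.9%) and 2 held 3 units. Among 35 genes that were 2-fold higher and in no chaperone list, 2 held 2 units (5.71%) and 0 held 3 units, and among 107 lower genes 16 (14.95%) and 0 did. Of 5834 genes with at least 100 UMIs and a promoter, 13.4% held 2 units and 0.566% held 3 units. Hspd1 and Hspe1 share 1 stretch of sequence and are counted as 2 genes here. Such a match describes the letters of the window and is not a measured binding site.

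All 10 chaperones that were 2-fold higher stood at graded levels, higher in each next range of the pair's UMIs, while of all 51 measured 13 did and 5 were lower in each next range. The 10 were picked as higher at 10 or more UMIs than at 0 to 1, so a rise from the lowest range was built in. Levels at 2 to 9 UMIs did not enter that choice. Both upper ranges entered it, so their order was not fixed by it but is not independent of it. All 4 ranges are cut by the pair's UMIs, which also chose the cells. Over cells with 0 to 1, 2 to 9, 10 to 29 and 30 or more UMIs of the pair, Hsp90aa1 had 635, 1329, 2318 and 3777 CPM. Over the same ranges Hsph1 had 63.2, 119.9, 218 and 418 CPM, and Hspb1 had 10.1, 38.6, 96.0 and 247 CPM. Hspd1 had 146, 227, 337 and 523 CPM. The cells with 2 to 9 UMIs thus lay between the others for each of these genes. Cct2, a CCT subunit, was flat, with 238, 238, 226 and 238 CPM. Hsp90b1 went the other way, with 775, 619, 574 and 483 CPM. Median depth over the 4 ranges was 4854, 4398, 4426.5 and 4890 UMIs per cell, so the ranges did not follow depth.

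Depth was also held fixed by thinning each cell to 3000 UMIs, which left out 93 heat-shock-high and 322 heat-shock-low cells. At that depth, 61.0% of heat-shock-high cells (57.1 to 64.8%) held 3 or more UMIs of Hsph1, Dnajb1, Hspb1 and Hspe1 together, against 16.2% of heat-shock-low cells (14.5 to 17.96%). Without thinning the shares were 76.4% and 31.8%. As a measure of free RNA, the haemoglobin genes Hbb-bs and Hba-a1, which lymphocytes do not make, had 3 or more UMIs in 0.154% of thinned heat-shock-high cells and 0.108% of thinned heat-shock-low cells. Within the 649 thinned heat-shock-high cells, the summed UMIs of the other chaperones went with those of the pair at Spearman's rho 0.41, a description over cells of 1 library.

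AP-1 transcription factor genes were higher as well. Of 11 measured AP-1 genes, 3 were at least 2-fold higher and 1 was lower, with a median log2 ratio of 0.65; under TMM Fosb fell short, at 0.91. Their sum was 9927 CPM in heat-shock-high cells and 5754 CPM in heat-shock-low cells (1.73, 1.70 to 1.75; 1.52 under TMM). Jun had 397 CPM in heat-shock-high cells and 98.3 CPM in heat-shock-low cells (4.04, 3.73 to 4.38). Fos had 1282 and 519 CPM (2.47, 2.38 to 2.57). Fosb, a marker by which these cells had been described, had 972 and 449.6 CPM (2.16, 2.07 to 2.26). All 3 of these form the AP-1 dimers that switch on within minutes of a stimulus. Junb, Jund and Atf3 were at ratios of 1.76, 1.58 and 1.77. Jdp2, a repressor that dimerises with Jun, was at 28.9 CPM in heat-shock-high cells and 128 CPM in heat-shock-low cells (0.225, 0.183 to 0.274).

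At a depth of 3000 UMIs, 74.0% of heat-shock-high cells (70.4 to 77.3%) and 38.8% of heat-shock-low cells (36.6 to 41.1%) held 3 or more UMIs of Fos, Fosb and Jun together, and 84.6% and 50.9% did without thinning. Over the 4 ranges of the pair's UMIs, Fosb had 449.6, 808, 941 and 1001 CPM, so most of its difference lay between the 2 lowest ranges. Jun had 98.3, 267, 231 and 548 CPM, and did not follow the order of the ranges throughout. Within the thinned heat-shock-high cells, AP-1 UMIs went with the pair at rho 0.27. There the ILC3 markers had rho 0.10, the type 2 effectors -0.0020, the alpha beta T cell markers -0.054 and the ILC2 markers -0.15.

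Some other early-response genes and feedback inhibitors were at least 2-fold higher in the same cells, while most genes of these lists were not. Of 19 measured Egr, Nr4a, Klf and Ier genes, 6 were 2-fold higher and 0 lower (median 0.65), 4 of them still so under TMM, although their sums were close at 9723 CPM in heat-shock-high cells and 8924 CPM in heat-shock-low cells, a ratio of 1.09 that turned to 0.957 under TMM. Id3, an inhibitor of E-protein transcription factors, had 181 CPM in heat-shock-high cells and 31.3 CPM in heat-shock-low cells (5.78, 5.06 to 6.61). Klf2, a factor of lymphocyte quiescence and migration, had 156 and 43.6 CPM (3.58), and Nr4a1, an orphan nuclear receptor made after antigen or stress signals, 1394 and 518 CPM (2.69). All 3 were higher in each next range of the pair's UMIs, with Id3 at 31.3, 90.5, 133 and 224 CPM over the 4 ranges.

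Among 14 RNA decay factors and phosphatases that end such signals, 3 were 2-fold higher and 0 lower, and the median was -0.03; under TMM 2 were higher, without Dusp1. Dusp2, a phosphatase of MAP kinases, had 290.0 CPM in heat-shock-high cells and 69.0 CPM in heat-shock-low cells (4.20, 3.82 to 4.62). Zfp36, which speeds the decay of cytokine mRNAs, had 625 and 196 CPM (3.18, 2.998 to 3.38), and Dusp1 had 1054 and 491 CPM (2.15). Of 18 genes of the NF-kB pathway, 2 inhibitors were 2-fold higher and Nfkb2 was lower, with a median of -0.32 and only 6 genes above 0; under TMM 1 was higher and 2 were lower, as Nfkbia fell short at 0.996 (log2) and Traf1, a signalling adaptor, reached -1.06. The inhibitors were Nfkbid, at 269.9 CPM in heat-shock-high cells and 80.4 CPM in heat-shock-low cells, and Nfkbia, at 3242 and 1424 CPM, while Nfkb2, a subunit, was at 47.8 and 124 CPM.

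Cd69, which holds lymphocytes in tissue and marks recent activation, had 363 CPM in heat-shock-high cells and 117 CPM in heat-shock-low cells (3.11, 2.88 to 3.36). Il2, the T cell growth factor, which ILCs can also make, had 156 and 41.8 CPM (3.73, 3.29 to 4.23). Il2 UMIs were found in 25.3% of thinned heat-shock-high cells and 8.29% of thinned heat-shock-low cells (34.1% and 12.8% without thinning), against 4.16% and 3.30% for at least 1 UMI of Hbb-bs and Hba-a1. Tnf, an inflammatory cytokine, had 101 CPM in heat-shock-high cells and 33.0 CPM in heat-shock-low cells (3.08, 2.65 to 3.57). Tnf UMIs came from 200 of the 742 heat-shock-high cells, so neither cytokine rested on a few cells. Ifng did: of its 114 UMIs in heat-shock-high cells, 61.4% came from 1 cell, and heat-shock-low cells had 3 UMIs.

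Rhob, a small GTPase induced by stress, had 111 CPM in heat-shock-high cells and 30.7 CPM in heat-shock-low cells, and Rasl11a, of the RAS-like family, 39.0 and 6.52 CPM. Mt1, the metal-binding metallothionein, had 55.2 CPM in heat-shock-high cells and 11.8 CPM in heat-shock-low cells, with 24.4% of the UMIs of heat-shock-high cells in 1 cell. In the same list of 12 measured oxidative and metal stress genes, of which 1 was lower (3 under TMM), the lower one was the iron store Fth1, at 5854 CPM in heat-shock-high cells and 13380.4 CPM in heat-shock-low cells (0.437, 0.431 to 0.444). Fth1 had 13380.4, 8539, 6489 and 5278 CPM over the 4 ranges of the pair's UMIs. Among 13 measured heat-shock factors and other heat-induced genes, Gadd45g, a growth-arrest gene, was 2-fold higher, at 90.4 CPM in heat-shock-high cells and 34.7 CPM in heat-shock-low cells, while Fam46a was 2-fold lower, at 60.7 and 166 CPM. The polyubiquitin gene Ubb was at a ratio of 1.58.

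**Figure D3:**
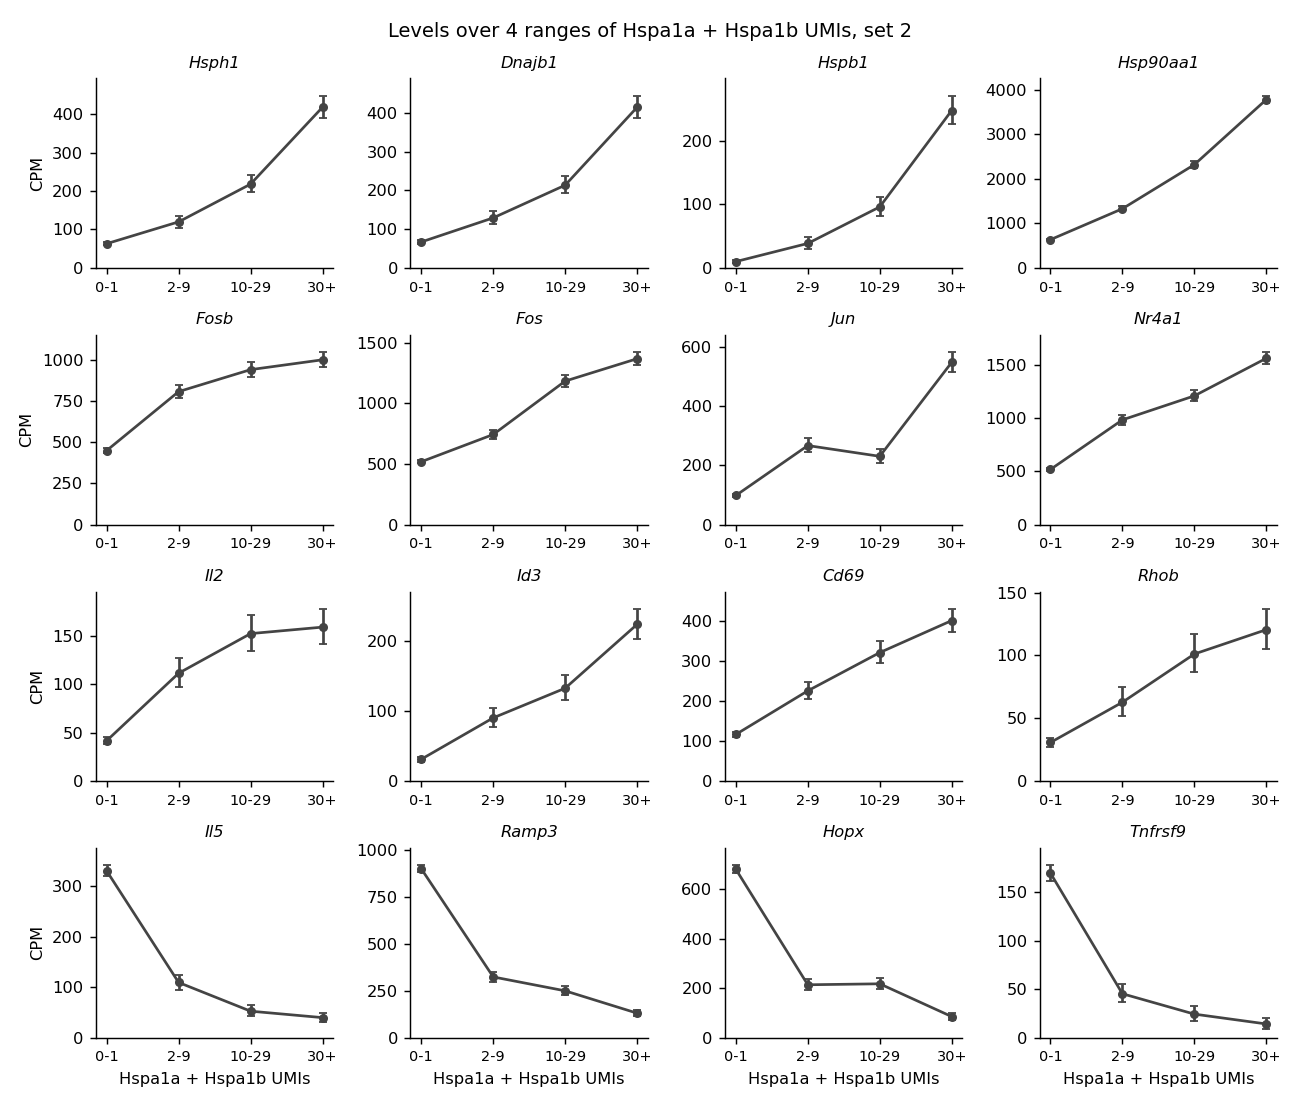
CPM of 16 genes (vertical axes, from 0) in cells of set 2 with 0 to 1, 2 to 9, 10 to 29 and 30 or more UMIs of Hspa1a and Hspa1b (horizontal axes); points are summed levels and bars 95% Poisson intervals. Chaperones in the top row are higher in each next range, Fosb levels off near 1001 CPM, and Il5, Ramp3 and Tnfrsf9 in the bottom row drop most between the 2 lowest ranges.

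The genes that were lower in heat-shock-high cells included several by which group 2 ILCs are known. Of 12 measured ILC2 markers, 0 were 2-fold higher and 5 were 2-fold lower (median -0.63), and their sum was 4357 CPM in heat-shock-high cells and 7658 CPM in heat-shock-low cells, a ratio of 0.569 (0.559 to 0.579). Il5, the growth factor of eosinophils, had 45.9 CPM in heat-shock-high cells and 331 CPM in heat-shock-low cells (0.139, 0.118 to 0.162). Rora had 956 and 2116 CPM (0.452, 0.436 to 0.468). Icos, a costimulatory receptor of ILC2s, had 794 and 1829 CPM (0.434), and Il2ra, the high-affinity subunit of the IL-2 receptor, 46.7 and 139.9 CPM (0.334). The other of the 5, Il1rl1, the IL-33 receptor, was low in both, at 5.77 CPM in heat-shock-high cells and 27.9 CPM in heat-shock-low cells.

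Other ILC2 genes were less than 2-fold apart. Il13, a cytokine that acts on epithelium, had 372 CPM (352 to 392) in heat-shock-high cells and 356 CPM (345 to 367) in heat-shock-low cells, levels whose intervals overlap, with a log2 ratio of 0.06 (-0.12 under TMM). Over the 4 ranges it had 356, 367, 397 and 349 CPM, while Il5 had 331, 109.6, 52.6 and 39.8 CPM. Gata3 had 393 CPM in heat-shock-high cells and 696 CPM in heat-shock-low cells (0.565, 0.533 to 0.598), and Areg 788 and 1087 CPM (0.725). So Il5 and Il13, which lie close together on chromosome 11, differed in how they went with the pair. With only cells that held a Gata3 UMI, 46 of the 53 higher and 124 of the 140 lower genes were again 2-fold apart. Genes under 100 UMIs in those cells, such as Ifng, are among the rest.

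Type 2 effector genes were lower in part. Of 8 measured, 0 were 2-fold higher and 3 were lower, which were Il5, Calca and Ccl1; in set 1, 2 were higher and 2 lower. Ccl1, a chemokine, came from 17 heat-shock-high and 58 heat-shock-low cells, with 36.4% of the UMIs of heat-shock-high cells in 1 cell, and was not 2-fold lower in Xist-only cells (log2 -0.46). Calca, the gene of the neuropeptide CGRP, had 76.7 CPM in heat-shock-high cells and 197 CPM in heat-shock-low cells (0.388). Ramp3, which joins a receptor of the related peptide adrenomedullin, had 188 and 902 CPM (0.208, 0.192 to 0.225). Ramp3 was in the list of 9 measured checkpoint and neuroimmune receptors, of which 0 were higher and 3 lower, the others being Icos and Pdcd1, which encodes the inhibitory receptor PD-1 (27.2 and 125 CPM). Their sum was 1488 CPM in heat-shock-high cells and 3311 CPM in heat-shock-low cells.

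A few cytokine and costimulatory receptors were 2-fold lower. Tnfrsf9, the costimulatory receptor 4-1BB, had the smallest ratio of CPM + 10 among the named genes apart from haemoglobin genes, with 18.97 CPM in heat-shock-high cells and 169 CPM in heat-shock-low cells (0.112, 0.0867 to 0.142). It was among 11 measured TNF superfamily genes, of which 0 were higher and 2 lower (median -0.76; 3 lower under TMM), the other being Cd70, at 107 and 229.6 CPM. Tnfsf9, the ligand of 4-1BB, was at 270.5 CPM in heat-shock-high cells and 150.7 CPM in heat-shock-low cells. Receptor and ligand of this pair therefore stood on opposite sides. Of 13 common gamma chain cytokine genes, Il2 was higher and Il2ra, Il2rb and Il21r lower (median -0.22), with Il2rb at 148 CPM in heat-shock-high cells and 393 CPM in heat-shock-low cells.

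Hopx, an atypical homeodomain protein, had 148 CPM in heat-shock-high cells and 681 CPM in heat-shock-low cells, with 16.7% of its UMIs in heat-shock-high cells from 1 cell. Ccr7, a receptor for homing to lymph nodes, had 133 and 492 CPM (0.270, 0.246 to 0.297). Hopx and Ccr7 were in a list of 8 measured genes that led the large clusters of set 2 in earlier work. Of these 8, 3 were 2-fold higher (2 under TMM), Id3 and Il2 among them, and 4 were lower. The part of those clusters in the differences given here was not tested. Palld, an actin-bundling protein, had 30.5 CPM in heat-shock-high cells and 178 CPM in heat-shock-low cells (0.171). Ifngr1, the interferon gamma receptor, had 239 and 769 CPM, and Kit, the stem cell factor receptor, 75.6 and 201 CPM. All 14 measured glycolysis genes were within 2-fold (median -0.44), although 3 were 2-fold lower under TMM, among them Ldha, the lactate dehydrogenase subunit, at 467 CPM in heat-shock-high cells and 887 CPM in heat-shock-low cells. At 3000 UMIs per cell, a UMI of Hopx or Cd70 was found in 25.9% of heat-shock-high cells (22.6 to 29.4%) and 43.0% of heat-shock-low cells (40.7 to 45.3%), and without thinning in 32.1% and 45.8%.

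**Figure D4:**
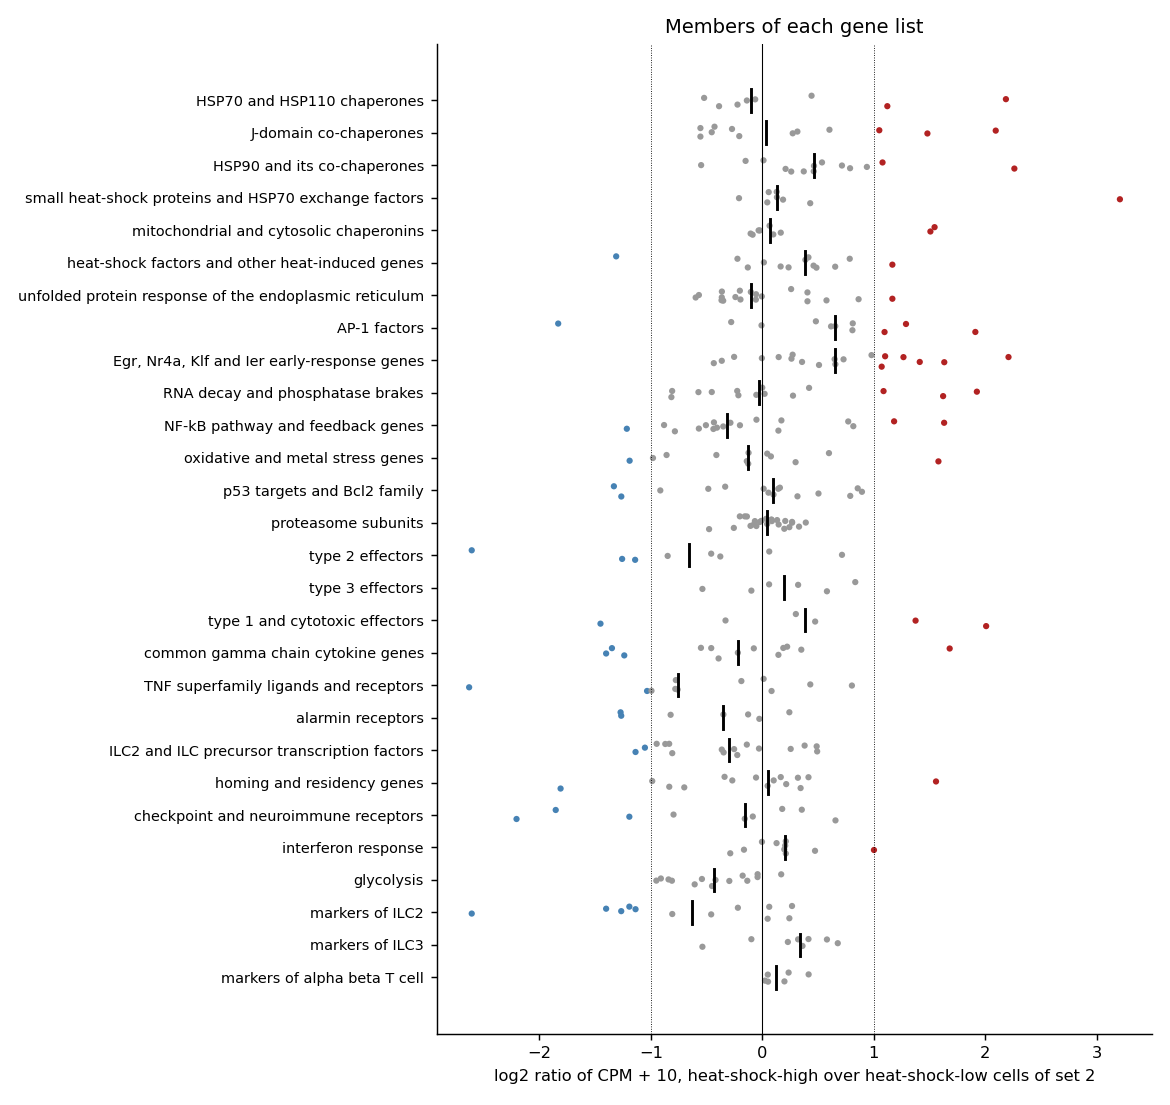
Log2 ratio of CPM + 10, heat-shock-high over heat-shock-low cells of set 2 (horizontal axis), for each measured gene of 28 lists (rows), in red at 2-fold higher or more, in blue at 2-fold lower or more and in grey between; black bars are list medians and dotted lines mark 2-fold. Chaperone, AP-1 and early-response rows hold red points, and ILC2 marker, type 2 effector and checkpoint rows hold blue points.

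Markers of other cells were compared as whole lists, the gene lists fixed for each cell type. Of 8 measured ILC3 markers, 0 were 2-fold apart, and the sum of the list was 964 CPM in heat-shock-high cells and 715 CPM in heat-shock-low cells. Ccr6, a chemokine receptor of the list, had 159.4 CPM in heat-shock-high cells and 117.2 CPM in heat-shock-low cells. The alpha beta T cell list had 0 of 6 measured genes 2-fold apart and summed to 1736 CPM in heat-shock-high cells and 1505 CPM in heat-shock-low cells. Cd3e of this list was near 0 in both, at 11.8 and 4.75 CPM, so the sum came from other members. The 6 measured genes were Cd3d, Cd3g, Trac, Trbc1, Trbc2 and Lat, with log2 ratios from 0.02 (Trbc2) to 0.41 (Cd3g), or from -0.16 to 0.23 under TMM. Macrophage markers summed to 2.20 CPM in heat-shock-high cells and 5.59 CPM in heat-shock-low cells, with Adgre1, C1qa, C1qb and C1qc at 0 in both, fibroblast markers to 4.95 and 6.15 CPM and melanocyte and Schwann cell markers to 2.75 and 2.98 CPM. The dendritic and Langerhans cell list summed to 172 CPM in heat-shock-high cells and 542 CPM in heat-shock-low cells, most of it Ccr7, with Cd207, Itgax, Flt3 and Cd209a at 0 in both. The mast cell and granulocyte list summed to 76.1 and 201 CPM, nearly all of it Kit, with Cma1, Tpsb2, S100a9 and Mcpt8 at 0 in both. Keratinocyte markers summed to 195 CPM in heat-shock-high cells and 309.6 CPM in heat-shock-low cells, mostly Sfn at 163 and 257 CPM, while Krt5 and Krt14, which define these cells, were at 1.10 and 1.65 CPM in heat-shock-high cells and 1.86 and 2.79 CPM in heat-shock-low cells. NK and ILC1 markers summed to 178 and 112 CPM, mostly Nkg7 at 135 and 108 CPM, and gamma delta T cell markers to 978 and 821 CPM. B and plasma cell markers summed to 16.5 CPM in heat-shock-high cells and 7.55 CPM in heat-shock-low cells, and endothelial and mural cell markers to 14.6 and 8.29 CPM. The part of these lists in the differences above was not tested.

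The same limits were applied to set 1, the other 1471 cells, as values side by side. There 230 of 990 cells within the limits were heat-shock-high (23.2%, 20.6 to 26.0%) and 566 were heat-shock-low. Their median depth was greater, at 8368 UMIs in heat-shock-high cells and 9689 UMIs in heat-shock-low cells, so a limit of 10 UMIs is not the same share of a cell. Of 5958 genes measured there, 61 were 2-fold higher (1.02%) and 139 lower (2.33%). Of the 53 higher genes of set 2, 35 were also 2-fold higher in set 1, and of the 140 lower genes 64 were also lower. Genes under 100 UMIs in set 1, such as Ifng and Pou2af1, count here as not shared, and their number is not given.

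Over all 5 chaperone lists, the sum without the pair had a ratio of 1.95 in set 1 also, with 9 of 49 measured genes 2-fold higher. Hsp90aa1 had 5116 CPM in heat-shock-high cells and 958 CPM in heat-shock-low cells of set 1, and Hspb1 had 470.4 and 61.7 CPM. Dnaja1, 2.81-fold higher in set 2, was 1.499-fold higher in set 1, at 2768 and 1847 CPM. The AP-1 sum had a ratio of 2.22 in set 1. The ratio of Hspb1 was 17.4 in set 2 and 7.62 in set 1, while Hsph1 had 5.11 and 7.26 and Dnajb1 4.76 and 6.48, so single chaperones differed in ratio where the sums did not.

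Some genes outside the chaperone lists had close ratios in the 2 sets, and others did not. Tnfrsf9 had 24.6 CPM in heat-shock-high cells and 223 CPM in heat-shock-low cells of set 1, and Ramp3 had 149.9 and 781 CPM, ratios close to those of set 2. Csf2, a growth factor of myeloid cells, was lower in set 2 by less than 2-fold, at 68.2 CPM in heat-shock-high cells and 131 CPM in heat-shock-low cells. In set 1 Csf2 was higher, at 127 and 50.4 CPM. Il13 was higher in set 1, at 314 CPM in heat-shock-high cells and 168 CPM in heat-shock-low cells. Il21r and Ccl1 had log2 ratios of 0.026 and 0.0031 in set 1, against -1.24 and -1.14 in set 2, and Cd70 was near 0 in both groups of set 1. The difference between the sets was not tested, since each is 1 set of cells.

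Cells of set 2 with Xist UMIs and no Y-linked ones, and cells with Y-linked UMIs and no Xist, were also summed apart; these are classes by detected UMIs, not replicates, and the remaining cells fell in neither. In Xist-only cells, 66 of 5112 genes were 2-fold higher (1.29%) and 150 lower (2.93%), and in Y-only cells 52 of 4716 (1.10%) and 159 (3.37%). The chaperone sum had a ratio of 1.89 in Xist-only cells and 1.99 in Y-only cells. Of the 30 genes named for the largest and smallest ratios, 28 were 2-fold apart in the same direction in Xist-only cells, the exceptions being Ifng and Krtap8-1, and all 30 were in Y-only cells. In set 1, 24 of the 30 were, with Ifng, Mt1, Jcad, Krtap8-1, Pou2af1 and Jdp2 as exceptions. The 30 were picked from all cells of set 2, which include both classes, so agreement within set 2 was largely built in. These counts hold genes below the minimum of 100 UMIs, which 27 of the 30 reached in Xist-only cells, 28 in Y-only cells and 27 in set 1. For Krtap8-1, a hair keratin-associated gene, 73.0% of the 407 UMIs of heat-shock-low cells came from 1 cell.

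**Figure D5:**
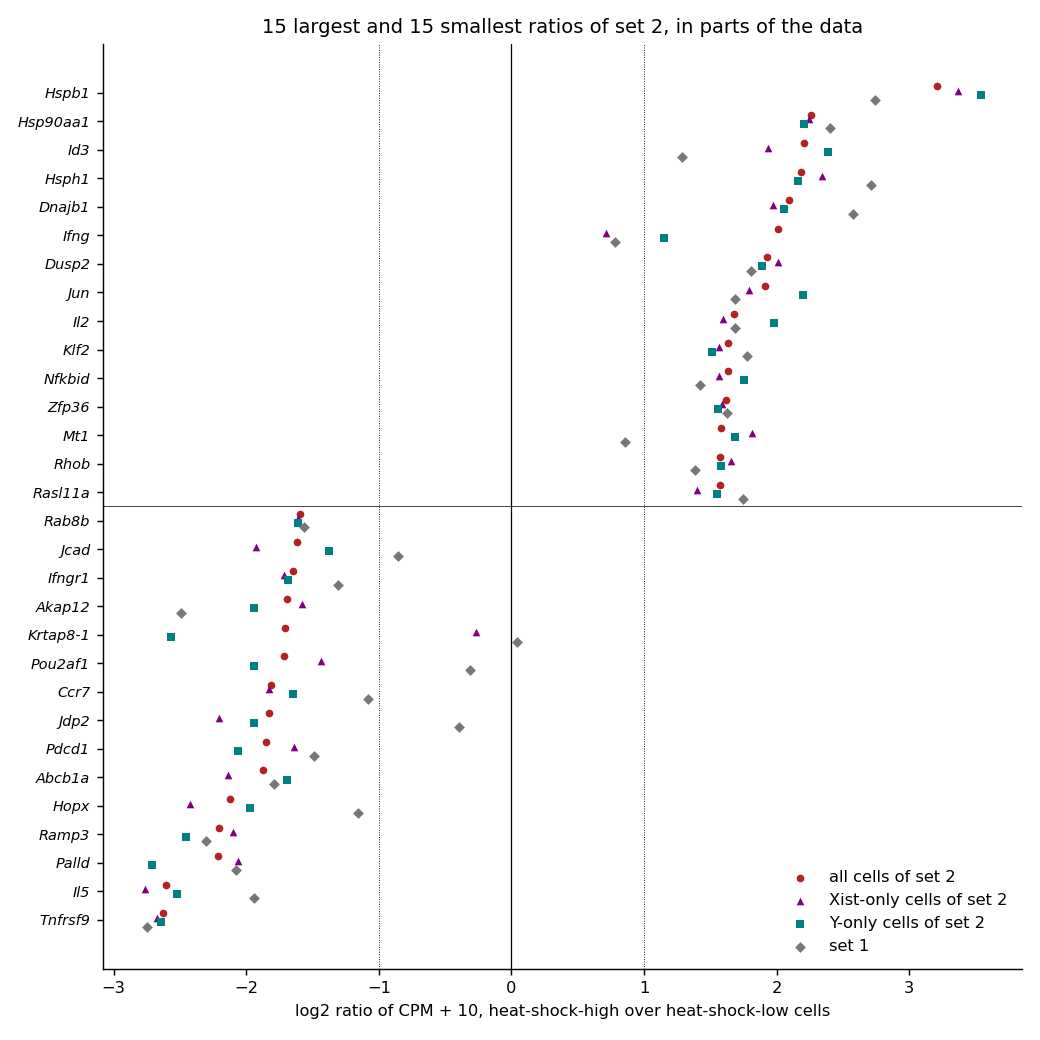
Log2 ratio of CPM + 10, heat-shock-high over heat-shock-low cells (horizontal axis), for the 15 largest and 15 smallest ratios of set 2 (rows), in all cells of set 2 (red circles), Xist-only cells (purple triangles), Y-only cells (teal squares) and set 1 (grey diamonds); dotted lines mark 2-fold. Markers of 1 row lie on the same side of 0 except for Krtap8-1 in set 1, and Jdp2 lies at -1.83 in set 2 and -0.40 in set 1.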

How the data were processed

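Single-cell RNA was measured in ILCs of mouse skin, 1 library at postnatal day 1 and 1 at postnatal day 14. Values in the table that the authors deposited are UMI counts, unscaled whole numbers for 18786 gene symbols. Tools named in the submitters' processing notes are Cell Ranger 3.1.0 and Seurat 4.1.0, with the mm10 build. Their settings, and whether doublets had been removed, are not stated, and no doublets were called. The members, the 41 gene lists and the limits were chosen with earlier results of these data known.

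UMIs were summed per group in Python 3.11.15 (numpy 2.4.6, scipy 1.17.1) and scaled to CPM. A gene needed 100 UMIs over both groups; 2-fold was judged on CPM + 10. Intervals were exact Poisson for CPM, exact binomial for plain ratios and Clopper-Pearson for shares, at 95%, and cover counting error only. Cells of 1 library are not replicates, so no p-value was computed. TMM factors came from edgeR 4.0.16. Ratios were tried on simulated sums drawn with counting error only, the error that the intervals assume, so uneven spread over cells was not covered. Named were the 15 largest and 15 smallest ratios (without ribosomal, mitochondrial, haemoglobin, antigen receptor, sex-linked and unnamed genes), measured chaperones and AP-1 genes, up to 4 members of other lists by size of ratio, and any marker. Promoter sequences are RefSeq's (GRCm38.p6); Hspa8, Hsp90aa1 and Hsp90ab1 had no entry.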

Additional observations from a re-analysis of the deposited data

How the results depend on the processing

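Of the 21 alternatives, 1 of them chosen after seeing the data (without cells whose barcode is in both sets), the scaling and the pseudocount moved the number of 2-fold genes most. Against 53 higher and 140 lower genes, TMM gave 28 and 226, median-of-ratios scaling 30 and 223, CPM + 1 164 and 256, and CPM + 50 27 and 37; under the other 17 both counts were within 1.5 times. The chaperone ratio of 1.95 was 1.71 under both scalings, 1.82 at 5 or more UMIs of the pair, 2.13 at 20 or more, 1.97 with limits as shares of UMIs or no UMI of the cycling genes, 1.9997 as a mean over cells, 1.89 in Xist-only and 1.99 in Y-only cells. The AP-1 ratio of 1.73 was 1.52 under both scalings, 1.68 at 5 or more UMIs and when thinned, 1.86 at 20 or more, 1.76 with limits as shares, 1.70 with heat-shock-low cells weighted by depth, at 5% mitochondrial UMIs and in Y-only cells, 1.69 without the deepest 5% of cells, 1.81 in cells with a Gata3 UMI and 2.22 in set 1. Among 69 named genes that were 2-fold apart, 1424 of 1426 values with enough UMIs under the alternatives kept the direction and 1344 stayed 2-fold apart. The exceptions in direction were Il21r at 0.026 and Ccl1 at 0.0031 (log2) in set 1. The cause was not tested. The 69 genes were chosen as 2-fold apart in set 2. All alternatives but set 1 reused cells of set 2, so much of this agreement was built in. Another 23 values fell below the minimum of UMIs and are not in these counts; 4 of them lay in the other direction, Krtap8-1 at 0.04, Cd70 at 0.38 and Il1r2 at 0.13 in set 1, and Il1r2 at 0.53 in Y-only cells. Between set 1 and set 2, the library, the mice in it and the state of the cells cannot be told apart. Within set 2, the mouse a cell came from and the state of the cell cannot be told apart. No paired analysis was possible because each day had 1 library and cells could not be assigned to a day. Genes under 100 UMIs over both groups were too shallow for a ratio here.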

Other observations

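Cell death genes gave a mixed picture. Of 15 measured p53 targets and Bcl2 family genes, 0 were 2-fold higher and 2 were lower (3 under TMM), the survival genes Bcl2a1b (82.5 CPM in heat-shock-high cells and 223 CPM in heat-shock-low cells) and Bcl2a1d (58.5 and 155 CPM), near-identical copies whose split is uncertain. Bbc3, which encodes the death activator PUMA, had 20.3 CPM in heat-shock-high cells and 6.34 CPM in heat-shock-low cells. Of 10 measured interferon response genes, Irf1, a transcription factor of that response, was 2-fold higher, at 93.2 CPM in heat-shock-high cells and 41.5 CPM in heat-shock-low cells, though not under TMM (log2 0.84), and 0 were lower.

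Of 15 measured homing and residency genes, Cd69 was higher and Ccr7 lower (3 lower under TMM); Cxcr6, a receptor of tissue-resident lymphocytes, had 906 CPM in heat-shock-high cells and 1806 CPM in heat-shock-low cells. Cxcl2, which draws in neutrophils, had 856 CPM in heat-shock-high cells and 476 CPM in heat-shock-low cells, and 0 of 6 type 3 effectors were 2-fold apart. Gzmb, a cytotoxic granule protease, had 12.6 and 52.0 CPM.

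Red cell genes summed to 20.6 CPM in heat-shock-high cells and 341 CPM in heat-shock-low cells, but 69.1% of the Hbb-bs UMIs of heat-shock-low cells were in 1 cell. Hbb-bs UMIs were found in 3.39% of thinned heat-shock-high cells and 2.65% of thinned heat-shock-low cells.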
